A study of Mus musculus with 3 samples.

Results

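The immunity-related GTPases described here are 7 genes chosen by name, Tgtp2, Iigp1, Ifi47 and Tgtp1 of the GKS subfamily and Irgm1, Igtp and Irgm2 of the GMS subfamily, out of 55536 annotated mouse genes. Their mRNA was measured in bone marrow-derived macrophages, which are grown in culture from marrow cells, of the C57BL/6J strain, as 3 libraries of ribosomal RNA-depleted total RNA from the cytosolic fraction. All 3 libraries had the same treatment. The cells had 100 ng/ml Lipid A for 12 h, a washout of 12 h, and a second exposure to 100 ng/ml Lipid A that lasted 90 min. Cells with no exposure or a single exposure were not analysed here, so the values are levels in twice-exposed cells and carry no response to Lipid A. The 3 libraries carry 1 donor record and no genetic change is labelled, so the SDs below, all over n = 3 libraries, measure the spread between these samples, which may be technical.

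Immunity-related GTPases are interferon-induced proteins of mouse cells that act on the membranes of vacuoles holding intracellular parasites such as Toxoplasma gondii. The GKS proteins are the effectors: they bind GTP, gather on the vacuole and disrupt it. The GMS proteins are the regulators: they sit on the membranes of the cell's own organelles and keep the GKS proteins inactive there. The subfamilies are named for 1 residue in the first nucleotide-binding motif, the P-loop, which is lysine in GKS proteins and methionine in GMS proteins. Lipid A is the part of bacterial lipopolysaccharide that is sensed by Toll-like receptor 4. Macrophages answer it with interferon beta, which acts back on the cells through the type I interferon receptor.

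The residue that divides the family can be read from the mRNA. The stretches below are 36 bases of coding sequence around that codon, which is in capitals, for the 6 members on chromosome 11, from the GENCODE M21 transcript with the highest level of each gene. They are shown because they are the sequence feature that sorts the members.
Ifi47: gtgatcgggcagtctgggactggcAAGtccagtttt
Tgtp1: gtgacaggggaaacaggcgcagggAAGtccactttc
Tgtp2: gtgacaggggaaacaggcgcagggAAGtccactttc
Irgm1: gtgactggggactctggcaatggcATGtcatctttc
Igtp: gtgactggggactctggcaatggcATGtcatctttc
Irgm2: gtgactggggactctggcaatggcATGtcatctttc
The Tgtp1 and Tgtp2 stretches are identical, as are those of the 3 GMS genes. On the mm10 build (GRCm38) they lie at chr11:49095642-49095677 on the plus strand for Ifi47, chr11:48987661-48987696 on the minus strand for Tgtp1, and chr11:49059528-49059563 on the minus strand for Tgtp2. The GMS stretches lie at chr11:48866755-48866790 on the minus strand for Irgm1, chr11:58206269-58206304 on the plus strand for Igtp, and chr11:58219689-58219724 on the plus strand for Irgm2. Over whole coding sequences, pairwise identity was 58.3% to 61.1% within the GKS genes when the Tgtp1 and Tgtp2 pair is set aside, and that pair was 99.7% identical. Within the GMS genes it was 65.9% to 72.3%, with Irgm2 and Igtp the closest. Between the subfamilies it was 52.6% to 58.0% over 12 pairs.

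Promoter windows from RefSeq (GRCm38.p6, 250 bases before to 50 after the gene start) matched 6 of the 7 members, all but Iigp1. They were searched on both strands for the core of the interferon-stimulated response element, GAAANNGAAA, which interferon regulatory factors bind, and for the gamma-activated site, TTCNNNGAA, an element of genes that interferon gamma induces. Both sets of letters, and their joined form below, were written down after the sequences had been seen. The core was in 5 of the 6 windows and in 3.43% of all 32817 RefSeq windows of that length. The gamma-activated site was in 4 of the 6, against 8.29% of all windows. In those 4 genes both motifs stood in 1 arrangement, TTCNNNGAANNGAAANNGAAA, which was found in 5 of the 32817 windows (0.0152%). The fifth belonged to Gm12185, another gene of the family. Its annotated transcript Gm12185-201 begins in the first exon of Tgtp1, on the same strand. The Gm12185 window may therefore hold the Tgtp1 stretch itself and not a further case, which was not checked. Of 6 other family genes whose windows were searched, 3 had the core, Gm12185 among them. Gm12250 had both motifs without this arrangement, and 9930111J21Rik2, Gm5431 and Irgq had neither motif. The stretches with the matched letters in capitals are printed because they show that arrangement in the effectors Tgtp1 and Tgtp2 and the regulators Igtp and Irgm2. The Irgm1 stretch shows core matches only.
Tgtp1: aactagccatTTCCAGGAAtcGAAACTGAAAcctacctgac
Tgtp2: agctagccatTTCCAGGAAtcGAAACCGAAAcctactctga
Igtp: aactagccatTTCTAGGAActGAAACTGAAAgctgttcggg
Irgm2: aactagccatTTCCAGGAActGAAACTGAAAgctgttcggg
Irgm1: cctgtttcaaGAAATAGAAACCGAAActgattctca
They lie at chr11:48992304-48992344 for Tgtp1, chr11:49064263-49064303 for Tgtp2 and chr11:48871425-48871460 for Irgm1, all on the minus strand, and at chr11:58199501-58199541 for Igtp and chr11:58214892-58214932 for Irgm2 on the plus strand. Irgm1 had 2 overlapping core matches and no gamma-activated site in its window. Ifi47 had no match, and its window is set at the start of Ifi47-202, a minor transcript that begins at 49076587, whereas the leading Ifi47-201 begins at 49087039. The Irgm2 and Igtp windows were 92.1% identical over 265 aligned bases, and the Tgtp1 and Tgtp2 windows 77.5% over 276. The 4 genes with the arrangement thus form pairs of alike windows and are not 4 separate cases. A match of letters says nothing of whether a factor was bound in these cells.

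Of the 7 members, 6 lie on chromosome 11 in a pair of clusters. Irgm1 (48861968-48871683, minus strand), Tgtp1 (48985327-48994172, minus), Tgtp2 (49057194-49064206, minus) and Ifi47 (49076587-49096974, plus) span 235 kb. After a gap of 9.10 Mb come Igtp (58199556-58207591, plus) and Irgm2 (58199618-58222782, plus), which overlap and together take 23.2 kb. Iigp1 is on chromosome 18 (60376027-60392634, plus). Each cluster on chromosome 11 holds a GMS gene, and the GKS genes on that chromosome are all in the cluster with Irgm1.

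The libraries held 40637857, 70407572 and 49678390 expected counts on annotated genes in replicates 1, 2 and 3. Macrophage markers were detected in 6 of 6 cases, with a summed level of 4741 to 5413 TPM. None of 4 neutrophil, 4 dendritic cell, 5 T and NK cell, 3 B cell and 4 stromal and endothelial markers was detected. Their summed levels were 0.0400 to 0.130, 0.260 to 0.320, 0.0200 to 0.130, 0.0100 to 0.0600 and 0.790 to 1.10 TPM, and Ly6g, Retnlg and Cd3g were at 0 counts in all 3 libraries. At that depth, 0 counts allow up to 0.120 TPM of Ly6g, 0.137 TPM of Retnlg and 0.0443 TPM of Cd3g in the library with the highest limit, for counting error only.

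All 7 members were detected, meaning 1 TPM or more in every library (TPM, a measure of transcript abundance, is corrected for transcript length and set to a fixed total per library). By the same rule 16.7% of the 55536 annotated genes and 40.1% of the 22015 nuclear protein-coding genes were detected, and the members stood high among the latter. By mean TPM among the 8826 detected protein-coding genes, Irgm1 ranked 218, Tgtp2 374, Iigp1 531, Ifi47 550, Igtp 768, Irgm2 997 and Tgtp1 2759. In bulk RNA, fewer cells with a transcript and less of it per cell cannot be told apart. The family together had 849.7, 504 and 548 TPM in replicates 1, 2 and 3, a mean of 634 ± 188 TPM. That was 0.287%, 0.183% and 0.214% of all annotated counts, from 116747, 128969 and 106076 expected counts.

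Among the effectors, Tgtp2 (ENSMUSG00000078921.3, the protein Irgb6, which is among the first to load onto the Toxoplasma vacuole) had 172, 94.3 and 117 TPM in replicates 1, 2 and 3, a mean of 128 ± 40.2. Iigp1 (ENSMUSG00000054072.12, the protein Irga6, on which the biochemistry of the family was worked out) had 136, 61.5 and 84.3 TPM, a mean of 94.1 ± 38.4. Ifi47 (ENSMUSG00000078920.3, the protein Irgd) had 123, 74.2 and 73.2 TPM, a mean of 90.2 ± 28.7. Replicate 1 was the highest library for each of these 3 genes. Tgtp1 (ENSMUSG00000078922.9, a near-copy of Tgtp2) was far below them, at 31.4, 7.23 and 9.60 TPM and a mean of 16.1 ± 13.3. Its lowest and highest libraries differed by 4.34 times, more than for any other member.

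Among the regulators, Irgm1 (ENSMUSG00000046879.7, which in mice is needed for resistance to several intracellular bacteria and protozoa) had 239.6, 173 and 169 TPM, a mean of 194 ± 39.5. It was the highest member in each library and the steadiest, with a highest library 1.41 times the lowest. Igtp (ENSMUSG00000078853.8, the protein Irgm3, found on the endoplasmic reticulum) had 82.9, 51.5 and 55.1 TPM, a mean of 63.2 ± 17.2. Irgm2 (ENSMUSG00000069874.7, found on the Golgi) had 63.6, 42.3 and 39.5 TPM, a mean of 48.5 ± 13.2. Replicate 1 was again the highest library for all 3 genes.

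**Figure D1:**
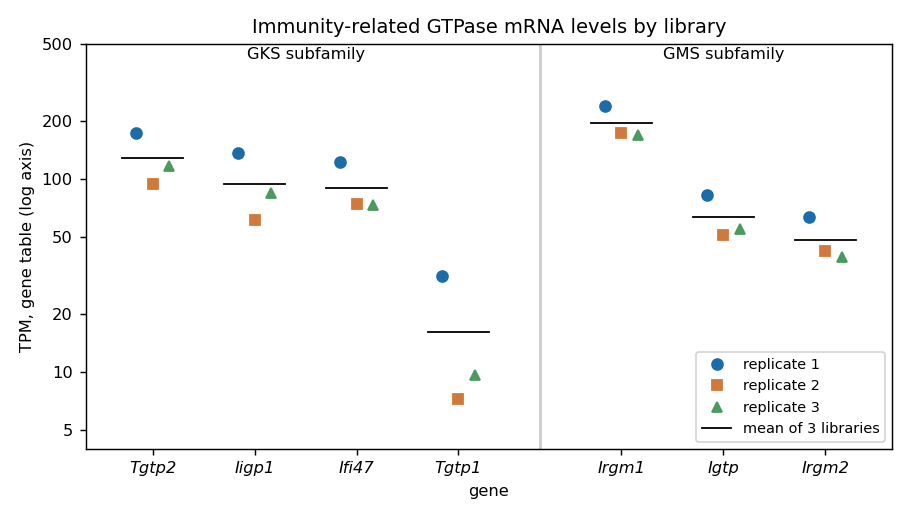
Level of each immunity-related GTPase in TPM on a log axis, GKS genes left of GMS genes; points are the libraries (replicates 1, 2 and 3) and the bar is their mean. Replicate 1 is the highest point for all 7 genes, and Tgtp1 is the lowest gene at 7.23 to 31.4 TPM.

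In order of mean level the members ran Irgm1, Tgtp2, Iigp1, Ifi47, Igtp, Irgm2, Tgtp1, and replicates 1 and 3 kept this order exactly. Replicate 2 had Ifi47 above Iigp1. As within-library log2 ratios of TPM, Irgm1 over Tgtp2 was 0.47, 0.88 and 0.53 (0.63 ± 0.22) and Tgtp2 over Iigp1 was 0.34, 0.62 and 0.48 (0.48 ± 0.14). Ifi47 over Igtp averaged 0.50 ± 0.08, Igtp over Irgm2 0.38 ± 0.10 and Irgm2 over Tgtp1 1.87 ± 0.78. Each of these 5 means lay more than 2 SD above 0. The pairs were ordered by the same mean TPM, so a positive mean was largely set in advance, and each SD rests on 3 libraries. Iigp1 and Ifi47 did not differ beyond their spread, at 0.15, -0.27 and 0.20 (0.03 ± 0.26).

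Summed by subfamily, the GKS genes had 464, 237 and 284 TPM and the GMS genes 386, 267 and 264 TPM in replicates 1, 2 and 3. The log2 ratio of GKS over GMS was 0.26, -0.17 and 0.11, a mean of 0.07 ± 0.22, so its sign differed between libraries and neither subfamily was above the other beyond the spread. With 3 libraries an exact sign-flip test cannot go below a two-sided p of 0.25, and none was run. GKS genes made up 51.2 ± 3.79% of the family TPM. With the near-identical Tgtp genes left out of the GKS sum, which lowers it by construction, the mean log2 ratio was -0.76.

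The share of TPM that went to nuclear protein-coding genes was 33.2%, 29.6% and 28.0% in replicates 1, 2 and 3, and so was also highest in replicate 1. With TPM rescaled to a fixed total over those genes, the family sum was 2563, 1706 and 1961, and replicate 1 was still the highest for all 7 members. The highest library then exceeded the lowest by 1.23 times for Irgm1 and 3.87 times for Tgtp1, the least and the most variable members. Interferon beta mRNA (Ifnb1) was also highest in replicate 1, at 26.5, 5.81 and 4.54 TPM. Its part in the members' levels was not tested.

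Whether a member varied more between the 3 libraries than genes of like abundance was tested with edgeR on the rounded expected counts of all 12256 genes that passed its filter on low counts, with Benjamini-Hochberg adjustment. It called 1 of the 7 members, Tgtp1, against 1.96% of all genes tested. Tgtp1 had 129, 30.3 and 43.3 CPM (counts scaled to library size after edgeR's TMM adjustment of that size). Its adjusted p was 1.20e-12 in edgeR, with 9 of the 12256 genes at a smaller p. The call rests on replicate 1: with that library left out the edgeR adjusted p was 0.78. The other 6 members were not called by edgeR, with adjusted p-values of 0.121 for Iigp1, 0.576 for Tgtp2, 0.598 for Ifi47, 0.898 for Igtp and 1.00 for both Irgm1 and Irgm2. At an unadjusted edgeR p under 0.05, 4 of the 7 members passed, against 6.88% of all genes. That number was 2 without replicate 1, 1 without replicate 2 and 5 without replicate 3. With Tgtp1 and Tgtp2 summed it was 3 of 6. The members were high in the same library, so they are not independent cases. Ifnb1 was called too, at an edgeR adjusted p of 3.74e-12.

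The split between Tgtp1 and Tgtp2 depends on very few bases. Their leading transcripts, Tgtp1-201 (2823 bases) and Tgtp2-201 (2810 bases), differed at 6 of 2810 aligned positions, with 13 further bases unaligned. Of the 6, 1 was before the start codon, 4 were in the coding sequence and 1 was after the stop codon, and the longest run without a difference was 1040 bases. Only 7.12% of the 31-base words of Tgtp1-201 were absent from Tgtp2-201, so a stretch of that length from most of the transcript is found in both. The sequenced fragments were longer, at 250 to 400 nt by the labels. The share of them that tells the genes apart was not measured. The value of each gene alone rests on that share, with the uncertainty given below.

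**Figure D2:**
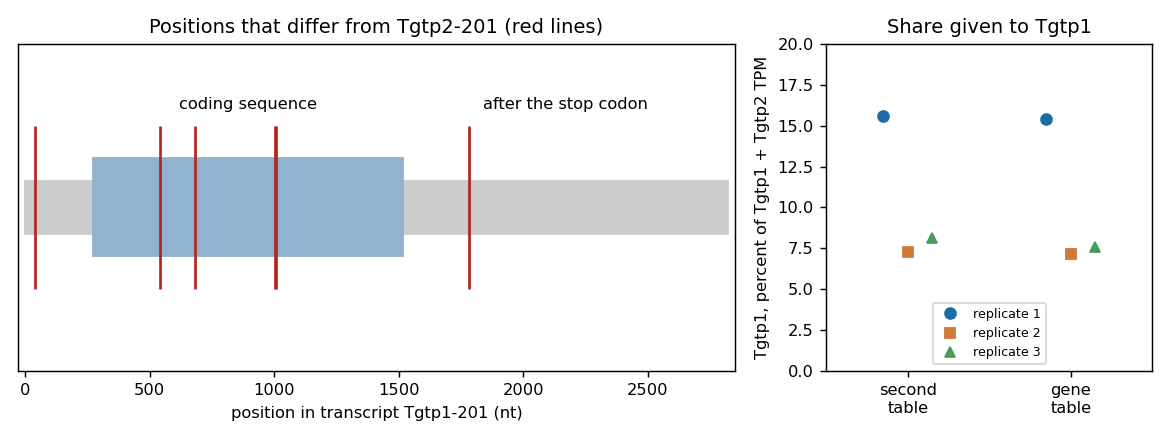
Left, the transcript Tgtp1-201 along its length in nt, with the coding sequence in blue and the 6 positions that differ from Tgtp2-201 as red lines, of which a pair in the coding sequence nearly coincide. Right, the percent of the summed Tgtp1 and Tgtp2 TPM given to Tgtp1 in each library by the second transcript table and by the gene table, where replicate 1 stands at 15.6% and 15.4% and the other libraries lie between 7.12% and 8.15%.

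Tgtp1 took 15.6%, 7.30% and 8.15% of the pair's TPM in the second transcript table, which was made from the FASTQ reads, against 15.4%, 7.12% and 7.57% in the gene table. Both quantifications thus gave Tgtp1 its higher share in replicate 1. The deposited posterior SD, which is the program's own uncertainty about the split, was 1.27% to 2.01% of the Tgtp1 count and 0.157% to 0.232% of the Tgtp2 count. Summed, the pair had 204, 102 and 127 TPM. Tested as 1 gene, the pair was not called more variable than the trend, with an edgeR unadjusted p of 0.011 and adjusted p of 0.275. Tgtp2, which was not called alone, gave most of that sum. The summed test therefore cannot decide on the call for Tgtp1.

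For the other members the quantifications were close once both were scaled to nuclear protein-coding genes. The log2 ratio of the second table over the gene table was 0.02 ± 0.03 for Iigp1, -0.06 ± 0.02 for Ifi47, -0.09 ± 0.01 for Irgm1, -0.07 ± 0.01 for Igtp and -0.10 ± 0.02 for Irgm2. It was 0.14 ± 0.08 for Tgtp2 and 0.20 ± 0.11 for Tgtp1. The order of the 7 members was the same in both tables in each library.

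Of 24 annotated transcripts of the 7 genes, 16 took 5% or more of their gene in at least 1 library of either table. Each gene had a leading transcript, and for most genes it took nearly all of the level in the first transcript table. Tgtp1-201 took 98.5%, 98.1% and 99.2% of Tgtp1, Tgtp2-201 took 98.6%, 96.4% and 96.8% of Tgtp2, and Ifi47-201 took 94.3%, 91.2% and 93.1% of Ifi47. Iigp1-202 took 89.8%, 85.9% and 89.4% of Iigp1, with Iigp1-201, which has an extra exon, at 9.20 ± 1.28%.

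Irgm1 was the most divided gene. Irgm1-202, with 2 exons, took 71.1%, 71.4% and 74.1%, and Irgm1-201, with an extra exon between them, took 28.8%, 28.6% and 25.9%. The second table gave Irgm1-202 65.3 ± 1.48%, so the same transcript led in both. The tables gave different shares to several minor transcripts. Tgtp2-202, 370 bases long and annotated as non-coding, took 17.4 ± 6.05% of Tgtp2 in the second table against 2.74 ± 1.19% in the first. Tgtp1-203, 764 bases long, took 19.6 ± 6.99% against 1.24 ± 0.556%, and Ifi47-202 took 20.2 ± 3.50% against 6.35 ± 1.33%.

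**Figure D3:**
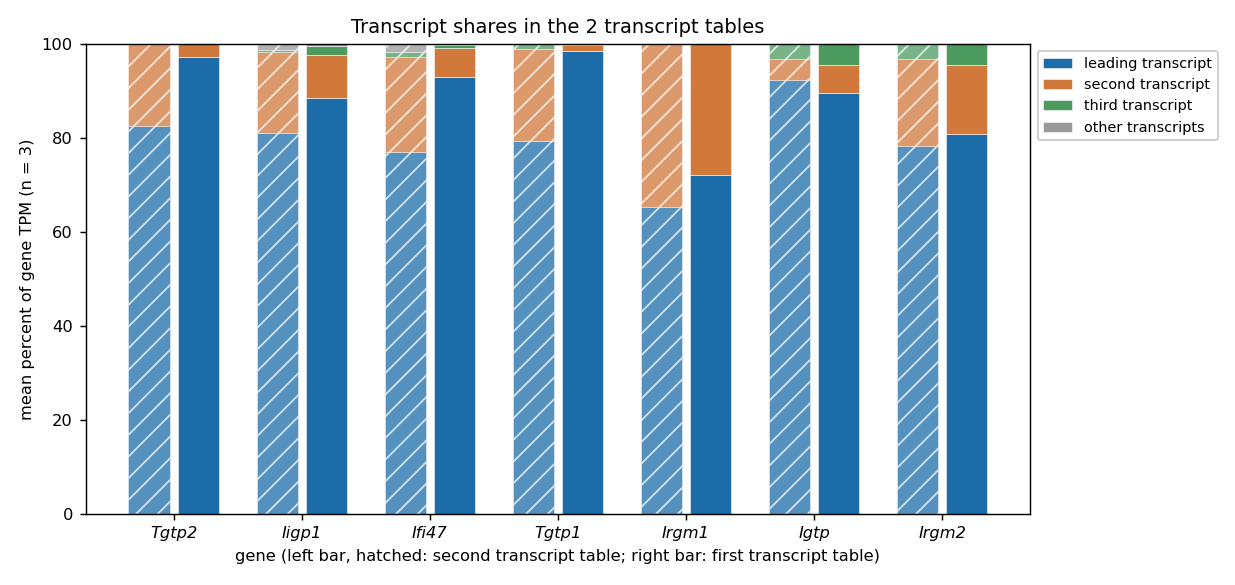
Mean percent of each gene's TPM taken by its annotated transcripts over 3 libraries, with the second transcript table as the hatched left bar and the first transcript table as the right bar. The same transcript leads in both tables for all 7 genes, and Irgm1 has the largest second transcript in the first table, at 27.8%.

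Igtp and Irgm2 are tied by an exon. Irgm2-201 begins inside the first exon of Igtp, shares 162 bases with it and leaves at the same splice site, and then runs past all other Igtp exons to the last exon of Irgm2. This transcript took 3.72%, 3.24% and 6.21% of Irgm2. The transcripts that start at Irgm2's own promoter carried the rest, with Irgm2-202 at 80.6%, 82.9% and 79.3% and Irgm2-203 at 15.6%, 13.8% and 14.5%. Igtp-201 took 88.1%, 90.3% and 90.4% of Igtp. Igtp-202 and Igtp-203, at 6.03 ± 0.411% and 4.38 ± 0.876%, splice out part of the last exon, and the P-loop stretch printed for Igtp lies in the part removed. Of the 17 protein-coding transcripts of the 6 members with a printed stretch, 13 hold it in their coding sequence, and the other 4 are these Igtp transcripts, Ifi47-203 and Tgtp1-202.

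**Figure D4:**
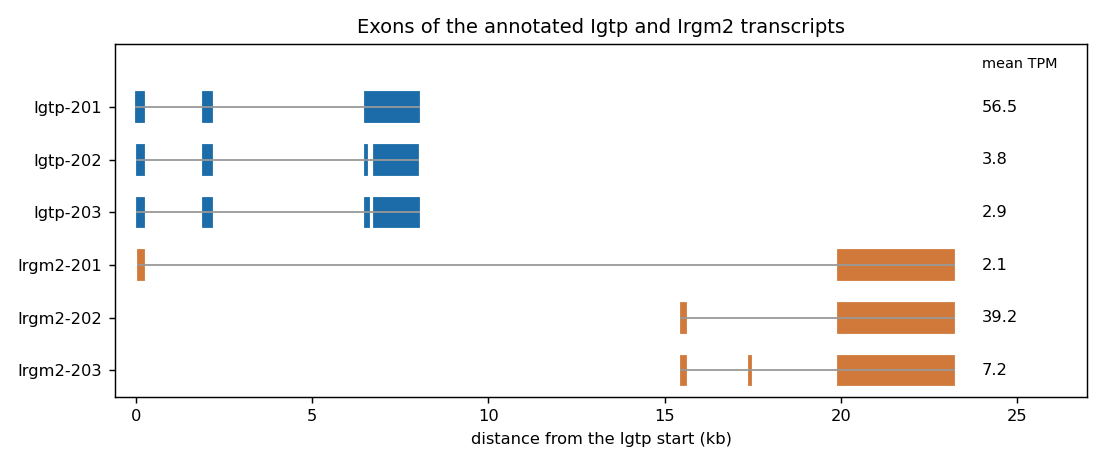
Exons (boxes) and introns (lines) of the annotated Igtp transcripts, in blue, and Irgm2 transcripts, in orange, by distance from the Igtp start in kb, with the mean TPM of each in the first transcript table at the right. Irgm2-201 starts in the first Igtp exon, and Irgm2-202 and Irgm2-203 start between the genes.

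Beyond the 7 members, 8 of 11 other genes of the family were detected, with a median of 5.70 TPM over the 11. The highest were Gm5431 at 60.4 ± 15.3 TPM, Gm12250 at 49.5 ± 10.7 TPM (Irgb10, annotated as a processed pseudogene in GENCODE M21), 9930111J21Rik2 at 45.2 ± 11.5 TPM and 9930111J21Rik1 at 30.9 ± 10.4 TPM. Gm5431, both 9930111J21Rik genes and Gm12185 have coding sequences of 2505 to 2532 bases, about as long as a pair of members end to end, and matched Tgtp1 best, at 76.0% to 76.3% of the shorter coding sequence. Gm12185 had 2.02 ± 1.36 TPM. Not detected were Gm4841 at 0.793 ± 0.567 TPM, Gm12187 at 0.170 ± 0.0600 TPM and the testis gene Irgc1 at 0.0133 ± 0.00577 TPM. The second table, where 9 of the 11 were detected, put Gm12187 at 1.82, 1.26 and 1.33 TPM. Gm12187 was higher there although nuclear protein-coding genes took a smaller share of TPM in that table. The 11 genes summed to 298, 183 and 207 TPM, below the family's 7 members in each library.

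The guanylate-binding proteins, another set of interferon-induced GTPases that load onto the same vacuoles, were detected in 10 of 11 cases, with a median of 41.6 TPM over the 11. Gbp2 was the highest at 287 ± 74.0 TPM, then Gbp5 at 140.2 ± 50.3, Gbp6 at 128 ± 39.9 and Gbp3 at 98.1 ± 25.6 TPM. The lowest were Gbp8 at 14.2 ± 3.58, Gbp11 at 5.96 ± 2.30, Gbp10 at 1.99 ± 0.956 and Gbp2b, which was not detected, at 1.09 ± 0.649 TPM. The second table had 9 of the 11 detected, with Gbp10 at 1.76, 0.759 and 0.949 TPM. The same 1 TPM cut is stricter there, because nuclear protein-coding genes took a smaller share of TPM. The factors that rescale those genes to a fixed total were 5.66, 5.58 and 6.63 in replicates 1, 2 and 3 of the second table. In the gene table they were 3.02, 3.38 and 3.58.

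Of the interferon ligands, Ifnb1 was detected, and interferon gamma (Ifng), the strongest known inducer of the family, was not, at 0.0533 ± 0.0493 TPM. The receptors for both were detected, 4 chains of 4. The type I receptor chains Ifnar2 and Ifnar1 had 61.4 ± 1.93 and 27.2 ± 0.606 TPM, and the interferon gamma receptor chains Ifngr1 and Ifngr2 had 44.9 ± 3.83 and 37.4 ± 0.400 TPM. Their kinases Jak1, Jak2 and Tyk2 had 36.9 ± 3.02, 33.6 ± 6.22 and 21.6 ± 4.44 TPM. Of the transcription factors of the pathway, Irf1 was at 270.1 ± 98.0, Stat2 at 112 ± 27.3, Irf8 at 35.6 ± 4.20 and Irf9 at 26.5 ± 2.72 TPM. Of the inhibitors, Usp18, which blocks the type I receptor, had 99.1 ± 35.5 TPM. Socs1, which blocks the kinases, was detected in the gene table at 1.40 ± 0.341 TPM. In the second table it had 0.743 ± 0.131 TPM and was not detected. As for Gbp10, the 1 TPM cut is stricter in the second table, so these calls are not on the same scale.

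The LC3 and GABARAP conjugation system, which in mouse cells directs the effectors to the vacuole, was detected in 10 of 10 genes with a median of 14.6 TPM. Gabarap led at 242 ± 17.6 TPM, followed by Map1lc3b at 26.0 ± 4.08, Gabarapl1 at 21.2 ± 3.16 and the conjugating enzyme Atg3 at 17.7 ± 2.05 TPM. The lowest were Atg5 at 11.7 ± 0.829, Atg12 at 9.74 ± 0.563, Atg16l1 at 4.72 ± 0.727 and Map1lc3a at 4.28 ± 1.39 TPM. Of 3 factors of ubiquitin tagging on the vacuole, the adaptor Sqstm1 (p62) had 509.8 ± 179 TPM, and the ligases Trim21 and Traf6 had 21.9 ± 4.44 and 5.63 ± 0.744 TPM.

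**Figure D5:**
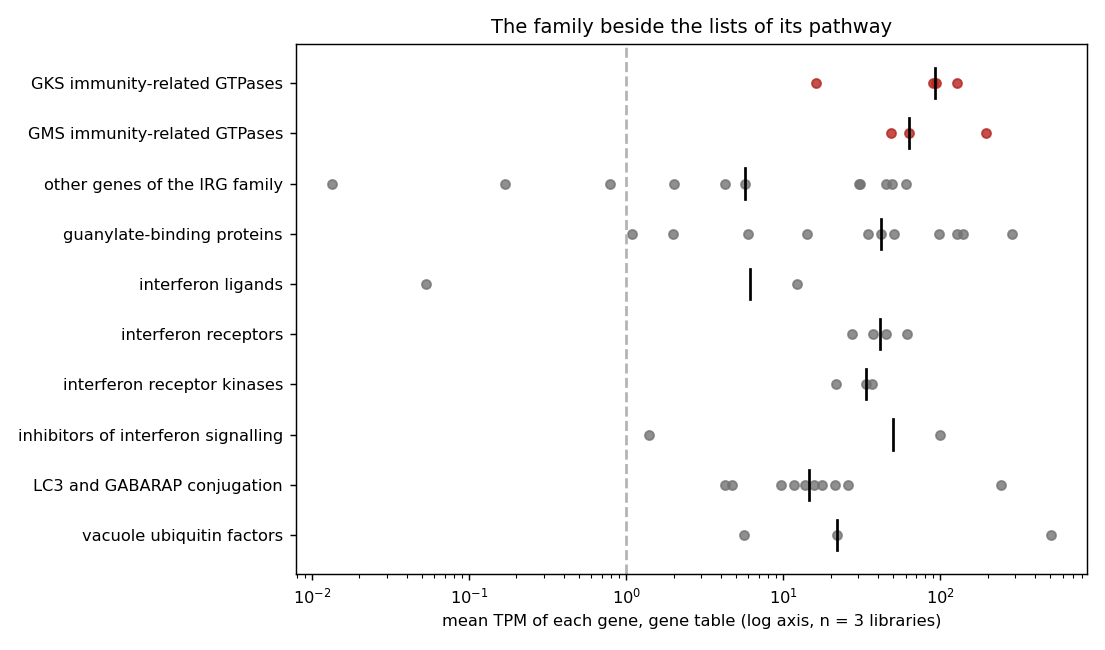
Mean TPM over 3 libraries of each gene on a log axis, by list, with the members of the family in red, the other lists in grey, a black bar at each list's median and a dashed line at 1 TPM. The GKS and GMS members have medians of 92.2 and 63.2 TPM, and the LC3 and GABARAP list has a median of 14.6 TPM.

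The genes nearest to the family's summed TPM in level and profile over the 3 libraries, among 8819 detected protein-coding genes outside the family, were Cd52, Isg15, Bst2, Irf7 and Lgmn. Their root mean square differences were 0.119, 0.148, 0.155, 0.19 and 0.201 on the log2 scale. Isg15 (a ubiquitin-like modifier), Bst2 (tetherin, which holds budding virus at the membrane) and Irf7 are well-known interferon-induced genes. Isg15 had 1003, 535 and 536 TPM and Irf7 had 909.6, 599.5 and 626 TPM. That replicate 1 was their highest library too was favoured by the search, which picked genes for likeness to the family's values. After each gene was centred on its own mean, genes among the nearest of 5522 were Parp10 (0.014), Stxbp3 (0.0181), Gm4070 (0.0231) and Crybg1 (0.0287). With 3 libraries such likeness is common: 155 of the 5522 genes were within 0.1 of the family's profile.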

How the data were processed

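The deposited tables give, per library, values by gene and 2 sets of values by transcript, all on mm10 with GENCODE M21, per the deposited README notes. Those notes derive the gene table and first transcript set from transcriptome alignments and the second transcript set from FASTQ files. Which programs made them, and whether strand was used, is not stated in the labels or headers used here. Expected counts and estimated counts are the deposited, unnormalized counts assigned to each gene or transcript. TPM was computed by the authors with a length correction, and the deposited percent values give each transcript's share of its gene. The deposited posterior SD is a score of assignment uncertainty in counts.

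The second table was summed by gene. TPM was rescaled over nuclear protein-coding genes as an alternative. Counts were rounded and fitted with edgeR 4.0.16 in R 4.3.3 (TMM, filterByExpr, intercept only): the residual deviance under the trended dispersion was compared with chi-square, with Benjamini-Hochberg adjustment, after testing on simulated data. The simulated counts were drawn with the fitted trend itself. That run therefore cannot show how the fit fares where real genes scatter around the trend. Features that are no annotated gene (0.227%, 0.110% and 0.0959% of counts in replicates 1, 2 and 3) were left out. Sequences came from GENCODE M21 transcripts and RefSeq promoters through Biopython 1.88.

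The members and gene lists were chosen with earlier results of these data known. Named are all members, the 4 highest and up to 4 lowest genes of each list, the 5 nearest genes by each measure, and transcripts at 5% or more. Some genes that this rule names are not reported here. Genes named as overlapping a member, or tested beside it (Ifnb1, Gm12185, Olfr56), were picked with their values in view. Pairs of libraries differed beyond sampling noise, with a chi-square per degree of freedom of 85.6 to 132 over genes, and each was counted as 1 replicate.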

Additional observations from a re-analysis of the deposited data

How the results depend on the processing

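No paired analysis was possible because the 3 libraries form 1 group. The count of 7 detected members held under each alternative run. The summed TPM of 634 was 348 in the second transcript table, 2077 on the protein-coding scale and 2055 on that scale in the second table (an alternative chosen after seeing the data), which are changes of denominator by construction; leaving out 1 library gave 526 to 699. The log2 ratio of GKS over GMS was -0.76 without Tgtp1 and Tgtp2, by the removal of those GKS genes, and leaving out 1 library gave -0.03 to 0.19, with -0.03 without replicate 1. The number of neighbours that differed beyond their spread, 5 of 6, ranged from 4 to 6 on leaving out 1 library. The log2 ratio of Iigp1 over Ifi47 ranged from -0.06 to 0.17 on leaving out 1 library, with -0.03 without replicate 1 and -0.06 without replicate 3; the cause was not tested. On expected counts, which carry no length correction, Igtp over Irgm2 was -0.49, Iigp1 over Ifi47 was 0.92 ± 0.26 and so beyond its spread, and Irgm1 over Tgtp2 was 0.22 ± 0.23 and so within it. The variability fit called 1 member in the main run and 0 with Tgtp1 and Tgtp2 summed, where Tgtp2 gave most of the counts. The same fit called 0 to 1 members on leaving out 1 library. In that fit, edgeR adjusted p-values over the alternatives ran from 1.27e-12 to 0.78 for Tgtp1, from 0.118 to 1.00 for Iigp1 and from 0.531 to 1.00 for Tgtp2. The depth gave each member at least 2188 counts in each library.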

Other observations

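Olfr56, an olfactory receptor gene on the strand of Ifi47, was listed at 19.1, 9.40 and 14.5 TPM in replicates 1, 2 and 3. Of this, 99.6%, 99.5% and 99.7% was in Olfr56-205, a retained-intron transcript whose first exon is shared with Ifi47 over 111 bases at chr11:49087034-49087144. The coding transcripts of Olfr56 had at most 0.670 TPM each in the second transcript table, against at most 0.0800 TPM in the first. Gm12185, a tandem gene of the family, has an annotated transcript, Gm12185-201, that begins in the first exon of Tgtp1 and shares 223 bases with it. That transcript had 41.4, 141 and 174 estimated counts in the second transcript table and was listed at 0 in all 3 libraries of the first. Gm12185-202, which starts elsewhere, had 1055, 691 and 667 estimated counts in the second table and 2.81, 0.950 and 1.38 TPM in the first. Gm12185 was called more variable between libraries than the trend, at an edgeR adjusted p of 0.000302, and Olfr56 was not called, at 0.0536. The pseudogene Gm12188, on the opposite strand of Ifi47, had 0, 4 and 1 counts.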
